A study of Homo sapiens with 8 samples.

Results

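MYC and the factors that share its partner MAX were followed in SW480, a line established from a human colorectal cancer, after silencing of TCF7L2. The network comprised 9 genes chosen by symbol from the 18656 in the table: the activators MYC and MYCN, the shared partner MAX, and the antagonists MXD1, MXI1, MXD3, MXD4, MNT and MGA. All 9 were listed, and all 9 passed the minimum of 1 TPM in at least 2 libraries that left 11894 genes for testing. The 8 ribosomal-RNA-depleted libraries formed 4 groups of 2: 24, 48 and 72 h of TCF7L2 siRNA, and a negative-control siRNA whose libraries carry the label 0 h. With no control at the later times, silencing and time in culture after transfection cannot be told apart. The labels speak of 3 replicates, of which 2 libraries per group were analysed here, and do not call them separate cultures. The p-values therefore measure only the spread between these libraries, which may be technical.

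MYC and MYCN are basic helix-loop-helix leucine zipper proteins that bind DNA only as dimers with MAX, at the E-box CACGTG, and raise transcription of growth and metabolism genes. The MXD proteins and MNT pair with the same MAX, occupy the same sites and recruit the SIN3-HDAC corepressor complex, while MGA is the MAX partner found in a Polycomb complex (PRC1.6). In colorectal cancer MYC is a classical target of beta-catenin and the TCF/LEF factors, the family to which TCF7L2 belongs.

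Because these factors act through E-boxes and the silenced factor binds a different core, the promoter windows of the members were searched for both. RefSeq windows (GRCh38.p14, 250 bases before to 50 after a start) matched 8 of the 9 members, with 13 starts in all, and none was listed for MYC. The E-box CACGTG stood in 2 of the 13 windows, against 7.26% of all 35116 windows in the table. The TCF core (CTTTG followed by AA, AT, TA or TT, on either strand) stood in 1 of the 13, against 13.8% of all windows. Such a match is a description of the letters, not a mapped binding site. The stretches around these 3 matches are shown from their sense strand, with the match in capitals, because they are the members' own copies of the sites at issue. The first lies on the minus strand at chr17:2401221-2401280, with its match starting 193 bases before the MNT start. The second is on the minus strand at chr4:2262315-2262359, 238 bases before the MXD4 start. The third is on the plus strand at chr2:15940513-15940549, 10 bases before the MYCN start, where TTCAAAG is the core read on the opposite strand.
MNT: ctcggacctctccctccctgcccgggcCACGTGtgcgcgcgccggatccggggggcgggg
MXD4: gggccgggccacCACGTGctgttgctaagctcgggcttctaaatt
MYCN: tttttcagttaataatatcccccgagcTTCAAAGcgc

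Levels are TPM, shares of a library's transcripts corrected for length, divided by a scaling factor per library (median-ratio scaling) and called scaled TPM. The factors lay between 0.987 and 1.07 in 7 libraries and at 0.804 in the second 72 h library, whose listed TPM summed to 352455.7, against 448107.5 to 485601.5 in the other 7. Across the tested genes the 2 libraries of a group correlated at 0.992 to 0.996 on the log2 scale. Changes are log2 fold changes of scaled TPM + 1 ± SE from limma's fit to all 8 libraries, with the Benjamini-Hochberg adjusted p over all genes tested and a threshold of 0.05. The epithelial markers EPCAM, KRT8, KRT18, KRT19 and VIL1 were above 128 TPM in every library, and the endothelial markers PECAM1, VWF and CDH5 stayed below 0.4 TPM. KRT20, CDX1, LGALS4 and GPA33, markers of intestinal differentiation, were each below 1 TPM in at least 1 library. For KRT20 the low values came early, with 0.52 and 0.62 TPM as deposited at 0 h, and it had 2.98 and 2.59 at 72 h. Of the leukocyte markers PTPRC and CD3E stayed below 1 TPM, while CD68 and LYZ did not, and of the mesenchymal markers LUM reached 45.0 TPM. These markers moved with time. The 5 leukocyte markers summed to 4.39 to 5.59 TPM as deposited at 0 h, 6.15 to 6.40 at 24 h, 10.3 to 14.0 at 48 h and 27.1 to 29.98 at 72 h. For the 6 mesenchymal markers the sums were 10.9 to 12.8, 9.29 to 10.9, 28.4 to 29.1 and 36.1 to 52.2 TPM over the same times, and the 12 epithelial markers summed to 3157 or more in every library. The part of these shifts in the results was not tested. The targeted gene TCF7L2 had 6.48 and 6.99 scaled TPM in the 0 h control, 5.81 and 5.11 after 24 h, 4.67 and 3.83 after 48 h and 3.93 and 4.39 after 72 h. TCF7L2 fell at 48 h (-0.56 ± 0.11, adjusted p = 0.00725), as it did at 72 h (-0.58 ± 0.11, adjusted p = 0.00197), while its 24 h value of -0.26 ± 0.11 did not pass (adjusted p = 0.288). Omitting the second control or the second 48 h library removed the 48 h call (adjusted p = 0.0532 and 0.0573).

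MYC, the most abundant member by far, fell at each time after TCF7L2 siRNA. It had 417 and 412 scaled TPM in the 0 h control, 350.4 and 345 after 24 h, 311 and 311 after 48 h and 246 and 261 after 72 h. Every later pair of libraries lay below every earlier one, with no overlap between any 2 groups. The MYC level was 253.6 ± 11.1 scaled TPM at 72 h and 414.5 ± 3.42 in the control (mean ± SD, n = 2 each), and its place among all listed genes moved through 137, 158, 180 and 208 over the 4 times. In bulk RNA, fewer cells of a kind and less RNA per cell cannot be told apart.

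Against the control, MYC fell by 0.25 ± 0.04 at 24 h (limma adjusted p = 0.031), by 0.41 ± 0.04 at 48 h (adjusted p = 0.000291) and by 0.71 ± 0.04 at 72 h (adjusted p = 1.68e-06). At 72 h this was 0.612 times the control level. Within the siRNA series it fell further from each time to the next. The change was -0.16 ± 0.04 for 48 h against 24 h (adjusted p = 0.0366), -0.29 ± 0.04 for 72 h against 48 h (adjusted p = 0.000747) and -0.45 ± 0.04 for 72 h against 24 h (adjusted p = 2.92e-05). The 72 h falls against 0, 24 and 48 h held in every alternative run. The 24 h call did not hold on the TPM as deposited (adjusted p = 0.641), without a filter on low values (adjusted p = 0.0947), without a mean-variance trend (adjusted p = 0.131) or without either 0, 24 or 48 h library (adjusted p between 0.0684 and 0.208). The fall at 48 h against 24 h was lost in those settings too, with -0.07 on the TPM as deposited. The 48 h fall against 0 h held without any library but not on the TPM as deposited (adjusted p = 0.113), where the median SE over all genes was 0.162, against 0.0912 after scaling.

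**Figure D1:**
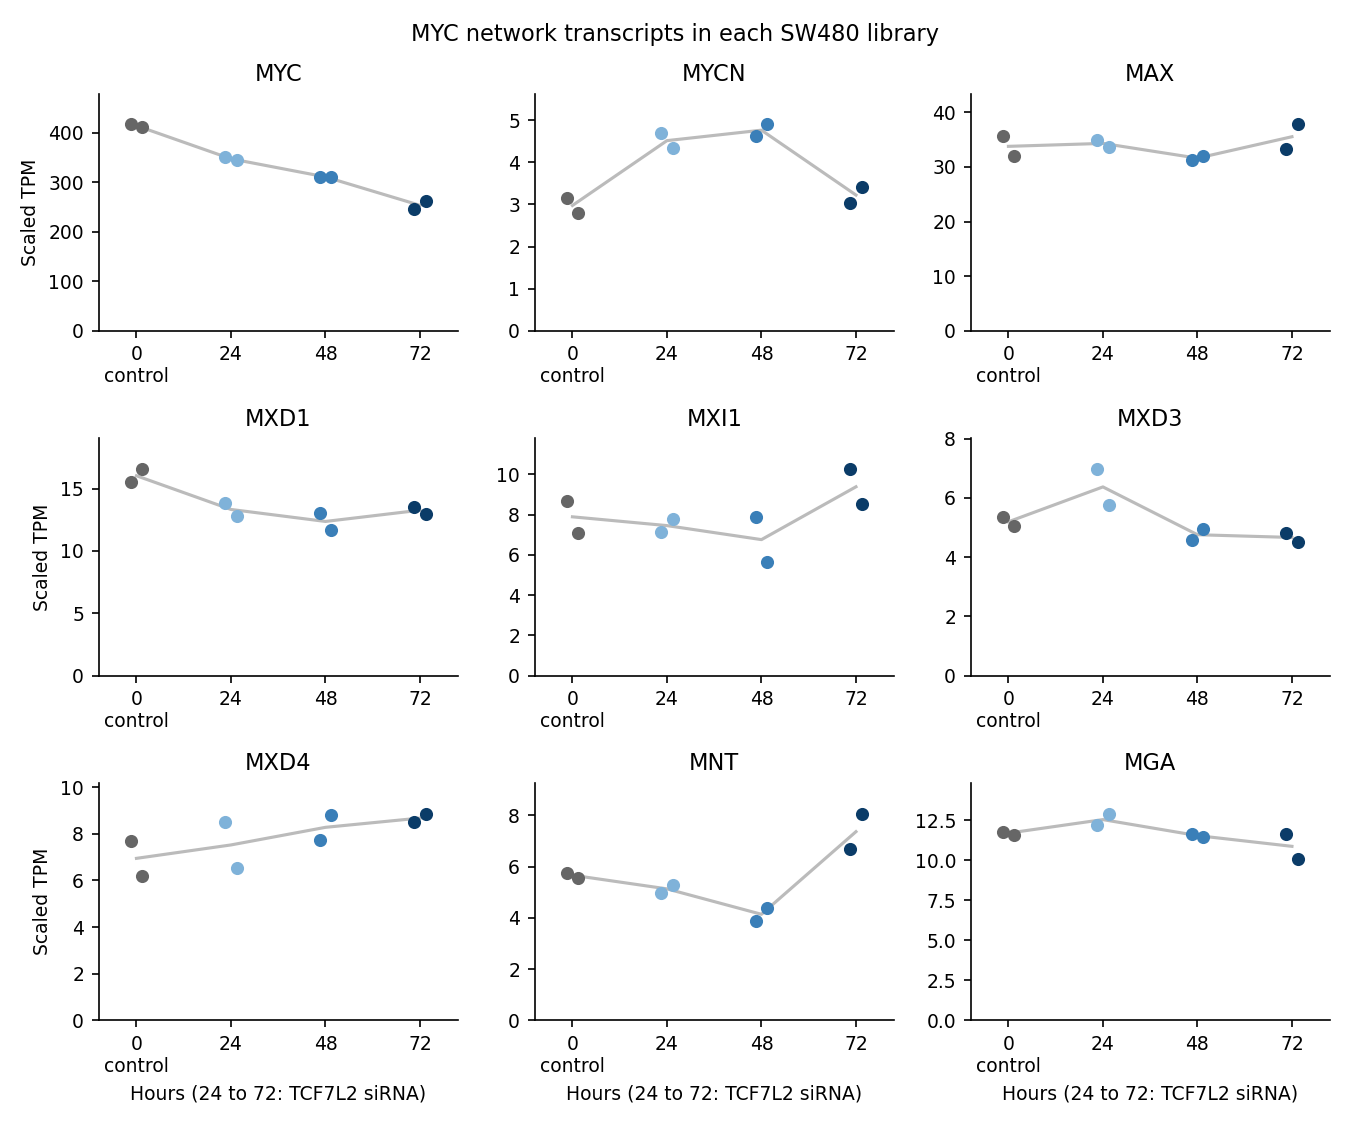
Scaled TPM (y axis, from 0) of each of the 9 network genes in each library (points) at 0 h (negative-control siRNA) and at 24, 48 and 72 h of TCF7L2 siRNA (x axis), with grey lines through the mean of the 2 libraries. MYC steps down at each time and reaches 246 and 261 at 72 h, against 417 and 412 in the control, MYCN is high at 24 and 48 h alone, and MNT is lowest at 48 h and highest at 72 h.

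MYCN, the paralog that is normally expressed in neural and embryonic tissue, was higher at 48 h of siRNA. It had 3.15 and 2.80 scaled TPM in the 0 h control, 4.69 and 4.33 after 24 h, 4.63 and 4.90 after 48 h and 3.04 and 3.41 after 72 h. The 24 and 48 h libraries stood above all 4 others, and the 72 h libraries overlapped the controls. The rise passed the test at 48 h (0.54 ± 0.10, adjusted p = 0.00578) but not at 24 h (0.47 ± 0.10, adjusted p = 0.0654), where it passed with either 72 h library omitted (adjusted p = 0.0493 and 0.0494). From 48 to 72 h MYCN fell by 0.45 ± 0.10 (adjusted p = 0.00743), and 72 h was also below 24 h (-0.39 ± 0.10, adjusted p = 0.0113). Omitting the first 24 h or the first 72 h library removed the call between those times (adjusted p = 0.0734 and 0.0602). The 72 h value against the control was 0.09 ± 0.10 and did not pass (adjusted p = 0.502). Even at its highest, the MYCN mean was 4.76 ± 0.192 scaled TPM, beside a MYC mean of 311 ± 0.341 at the same 48 h. The annotation places the antisense gene MYCNOS over 98 exonic bases of MYCN, and without a stated strand setting reads of the 2 cannot be told apart.

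MAX, through which all the others act, passed in none of the 6 comparisons. It had 35.6 and 31.9 scaled TPM in the 0 h control, 35.0 and 33.7 after 24 h, 31.3 and 31.9 after 48 h and 33.3 and 37.8 after 72 h. The ranges of 0, 24 and 72 h overlapped one another. The value furthest from 0 was 0.16 ± 0.08 for 72 h against 48 h (limma adjusted p = 0.118), which passed only without the first 72 h library (0.25, adjusted p = 0.0379). The sign of the MAX value at 24 and at 72 h against 0 h depended on the scaling, with 0.02 and 0.07 after scaling and -0.07 and -0.14 on the TPM as deposited. MAX was the most abundant member after MYC at each time.

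Among the antagonists MXD1, the founding member of the MXD group and known for its induction in differentiating cells, was lower after TCF7L2 siRNA. It had 15.5 and 16.6 scaled TPM in the 0 h control, 13.9 and 12.8 after 24 h, 13.0 and 11.7 after 48 h and 13.5 and 13.0 after 72 h. All 6 siRNA libraries lay below both controls, and the 3 siRNA groups overlapped one another. MXD1 fell at 48 h (-0.35 ± 0.08, adjusted p = 0.0135), as it did at 72 h (-0.25 ± 0.08, adjusted p = 0.0241), while the 24 h value of -0.25 ± 0.08 did not pass (adjusted p = 0.164). The 48 h call did not survive omission of the second control or the second 48 h library (adjusted p = 0.0901 and 0.0936) or use of the TPM as deposited (adjusted p = 0.175). That at 72 h did not survive omission of the second control or the second 72 h library (adjusted p = 0.135 and 0.0951). MXD1 shares 237 exonic bases on the same strand with SNRNP27 in the annotation, so its estimate may hold reads of that gene.

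MNT, the antagonist that is expressed in most tissues irrespective of growth state, was lowest at 48 h and highest at 72 h. It had 5.76 and 5.57 scaled TPM in the 0 h control, 4.96 and 5.30 after 24 h, 3.89 and 4.39 after 48 h and 6.67 and 8.05 after 72 h. No 2 groups overlapped, and the same held for the TPM as deposited, with 6.10 and 5.95 in the 0 h control, 4.97 and 5.23 after 24 h, 4.09 and 4.67 after 48 h and 6.91 and 6.48 after 72 h. MNT fell at 48 h against 0 h (-0.38 ± 0.11, adjusted p = 0.0319) and rose at 72 h against 0 h (0.32 ± 0.11, adjusted p = 0.0295). The test of the difference between those times gave 0.70 ± 0.11 for 72 h against 48 h (adjusted p = 0.000988), which held in every alternative run. The rise at 72 h against 24 h was 0.44 ± 0.11 (adjusted p = 0.007) and was lost on the TPM as deposited (0.33, adjusted p = 0.104). The calls against 0 h were weaker. The 48 h call was lost without either 0 h or either 48 h library (adjusted p from 0.0625 to 0.161), on the TPM as deposited (adjusted p = 0.144) and without a filter on low values (adjusted p = 0.0664). The 72 h call was lost without either 0 h library or the second 72 h library (adjusted p = 0.0809, 0.118 and 0.181), on the TPM as deposited (0.13, adjusted p = 0.544), with quantile normalization (adjusted p = 0.0694) and without that filter (adjusted p = 0.0755). An antisense gene without a symbol of its own overlaps 1065 exonic bases of MNT, so the value carries the same strand uncertainty as MYCN. That uncertainty also holds for MGA, MXI1 and MAX, with 510, 205 and 184 exonic bases under genes on the opposite strand. MXD4 shares 80 exonic bases on the same strand with MIR4800.

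The remaining MXD genes and MGA passed in no comparison with 0 h. MXI1, also known as MXD2 and studied as a candidate tumor suppressor, had 8.68 and 7.09 scaled TPM in the 0 h control, 7.14 and 7.76 after 24 h, 7.86 and 5.65 after 48 h and 10.3 and 8.50 after 72 h. The 48 h libraries lay furthest apart, and the change for 72 h against 48 h (0.43 ± 0.15, adjusted p = 0.0443) was the only call for this gene. That call was lost on the TPM as deposited (adjusted p = 0.264), with quantile normalization (adjusted p = 0.065), without a filter on low values (adjusted p = 0.12), without a mean-variance trend (adjusted p = 0.0627) and with only the 2 groups compared in the fit (adjusted p = 0.0645). It was also lost with either 24 h library (adjusted p = 0.0601 in both), the second 48 h (adjusted p = 0.288) or the first 72 h one (adjusted p = 0.202) omitted.

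MXD3, which is linked to S phase in proliferating cells, had 5.35 and 5.03 scaled TPM in the 0 h control, 6.97 and 5.77 after 24 h, 4.57 and 4.94 after 48 h and 4.82 and 4.51 after 72 h. Both 24 h libraries were above all others. MXD3 was lower at 72 h than at 24 h (-0.38 ± 0.11, adjusted p = 0.0146), a call lost when the first 24 h or the second 72 h library was omitted (adjusted p = 0.12 and 0.066), and both 72 h libraries were below both controls without passing (-0.13 ± 0.11, adjusted p = 0.332). Its exons overlap PRELID1 on the opposite strand by 1158 bases and RAB24 on the same strand by 926 bases, so its level is uncertain.

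MXD4, associated with resting and differentiated cells, had 7.69 and 6.20 scaled TPM in the 0 h control, 8.50 and 6.54 after 24 h, 7.74 and 8.81 after 48 h and 8.49 and 8.85 after 72 h. Both 72 h libraries were above both controls, but the change of 0.29 ± 0.13 did not pass (adjusted p = 0.0911), and on the TPM as deposited it was 0.10. MGA, which carries a T-box besides its helix-loop-helix domain, had 11.8 and 11.6 scaled TPM in the 0 h control, 12.2 and 12.9 after 24 h, 11.6 and 11.5 after 48 h and 11.7 and 10.1 after 72 h. MGA passed in none of the 6 comparisons, and its values ran from -0.19 ± 0.08 (72 h against 24 h) to 0.09 ± 0.08 (24 h against 0 h). Without the first 72 h library MGA passed at 72 h against 24 h (-0.28, adjusted p = 0.0263).

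**Figure D2:**
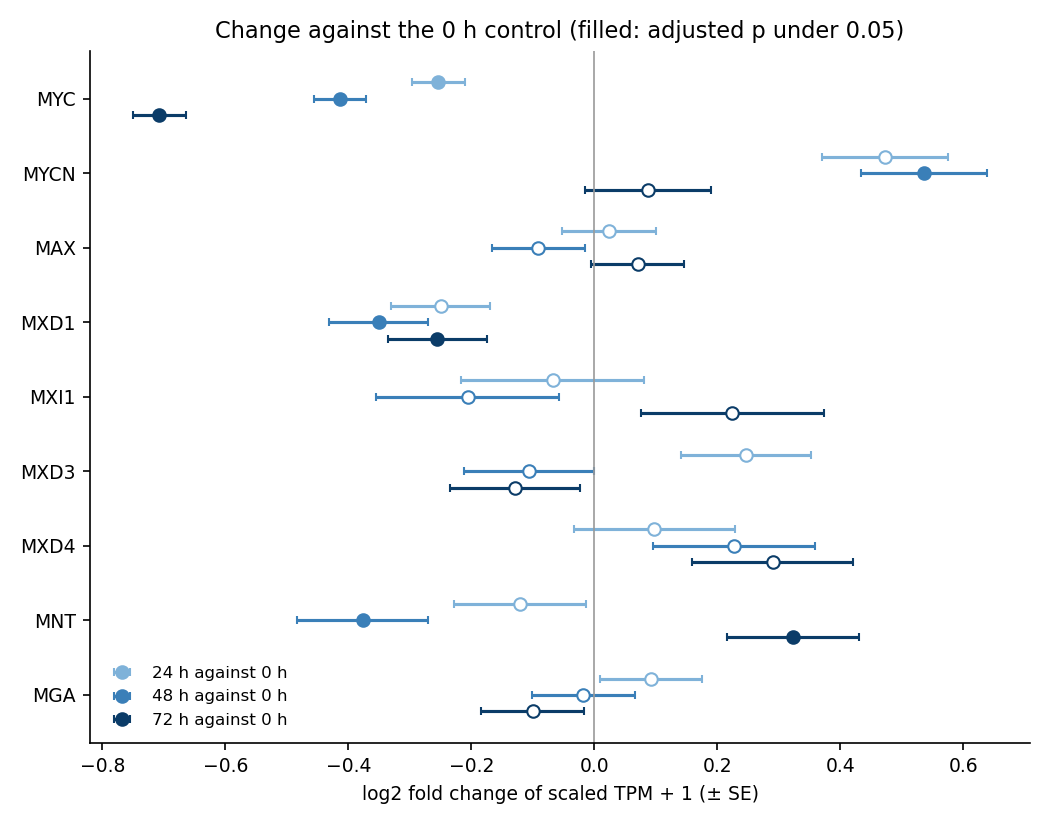
Log2 fold change of scaled TPM + 1 (x axis) ± SE against the 0 h control for each network gene (y axis) at 24, 48 and 72 h of TCF7L2 siRNA. Filled points have a limma adjusted p under 0.05: MYC at all 3 times, MYCN and MNT at 48 h, MXD1 at 48 and 72 h, and MNT, with the opposite sign, at 72 h.

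Counted together, 1 of the 9 members was called at 24 h against 0 h, where 1.08% of all tested genes were (0.647% higher and 0.437% lower). At 48 h 4 members were called, 1 higher (MYCN) and 3 lower (MYC, MXD1 and MNT), against 23.5% of all genes. At 72 h 3 were called, 1 higher (MNT) and 2 lower (MYC and MXD1), against 52.0% of all genes, a share of members no higher than the background. Of all genes, 37.6% had both 72 h libraries above both controls, as MNT and MXD4 did, and 37.8% had both below, as MYC, MXD1 and MXD3 did. The comparisons with 0 h share the same control libraries. Between siRNA times 1 member was called for 48 h against 24 h, lower, where 14.0% of all genes were called (7.56% higher and 6.47% lower). For 72 h against 48 h 4 were called, 2 higher and 2 lower, against 39.9% of all genes (20.5% higher and 19.4% lower). For 72 h against 24 h 4 were called, 1 higher and 3 lower, against 50.1% (24.9% higher and 25.2% lower). The scaling moved the background's split by direction. On the TPM as deposited 25 of 55 genes called were higher at 24 h (77 of 129 after scaling, and 54 of 110 with quantile normalization) and 1253 of 4968 at 72 h (3064 of 6179 after scaling). As deposited it was 512 of 597 for 48 h against 24 h (899 of 1668 after scaling), 590 of 3211 for 72 h against 48 h (2439 of 4751) and 1429 of 3977 for 72 h against 24 h (2965 of 5957). On the TPM as deposited only MYCN was called at 48 h and no member at 24 h. Leaving out the second 0 h library or the second 48 h library left 2 members at 48 h, and leaving out the second 0 h library or the second 72 h library left 1 at 72 h, namely MYC.

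TPM is corrected for length, so members can be set beside each other within a library. MYC made up 81.7 and 82.6% of the summed scaled TPM of the 9 genes in the control, 79.0 and 79.5% after 24 h, 78.6 and 78.8% after 48 h and 72.8 and 73.5% after 72 h. The 6 antagonists together had 54.8 and 52.0 scaled TPM in the 0 h control, 53.6 and 51.0 after 24 h, 48.7 and 47.0 after 48 h and 55.4 and 53.0 after 72 h. After scaling the antagonist sum was lowest at 48 h, and its ranges at 0, 24 and 72 h overlapped; on the TPM as deposited the sum of the group means was lowest at 72 h. MYC over summed antagonists was 7.77 ± 0.217 in the control, 6.64 ± 0.153 after 24 h, 6.51 ± 0.157 after 48 h and 4.68 ± 0.355 after 72 h (mean ± SD, n = 2 each). The 24 and 48 h ratios overlapped, both lay below the control, and the 72 h ratios lay below all others. MYC over MAX followed with 12.3 ± 0.852, 10.1 ± 0.154, 9.84 ± 0.15 and 7.15 ± 0.325 over the 4 times. Summed antagonists over MAX had means between 1.51 and 1.58 at the 4 times; the 48 and 72 h ranges overlapped each other and that of the control, while both 24 h ratios (1.53 and 1.52) lay below both control ratios (1.54 and 1.63). These ratios do not depend on the scaling of a library, and they are given without a test because the members were chosen with earlier results known.

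**Figure D3:**
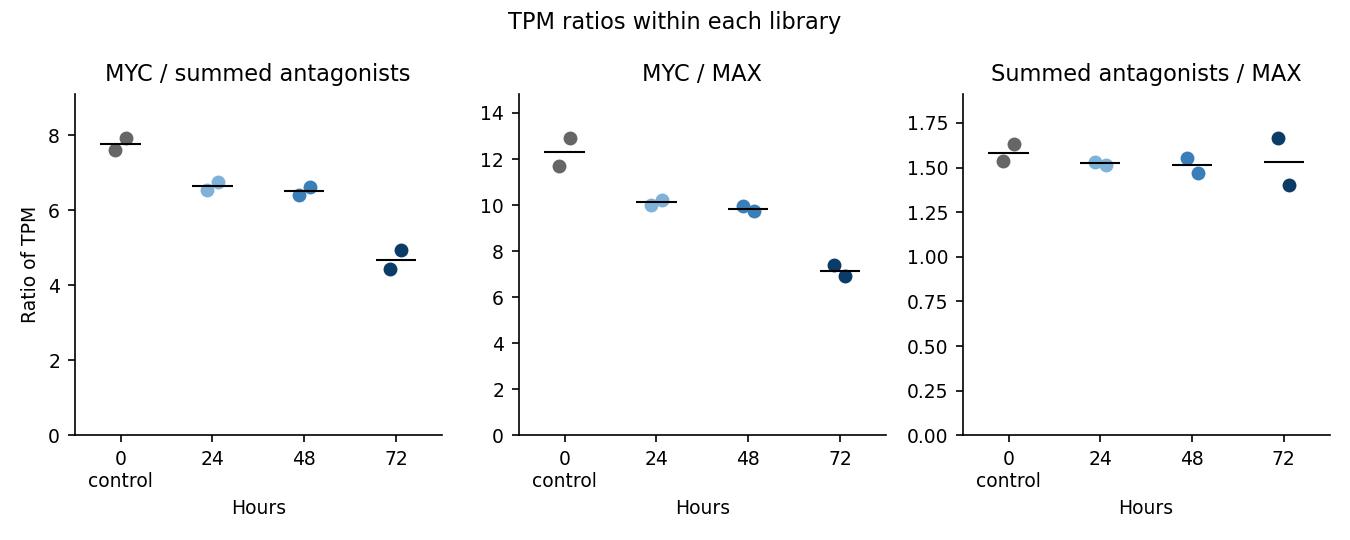
TPM ratios within each library (y axes, from 0; points are libraries and black bars the mean of 2) at 0 h (control siRNA) and at 24, 48 and 72 h of TCF7L2 siRNA (x axes). MYC over the summed antagonists is 4.43 and 4.94 at 72 h, against 7.61 and 7.92 in the control, while summed antagonists over MAX lies between 1.40 and 1.66 throughout.

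Within the antagonists the order of levels at 0 h was MXD1, MGA, MXI1, MXD4, MNT and MXD3, with MXI1 and MXD4 overlapping. At 72 h the order of the means was the same, but MGA overlapped MXI1 and MXI1 overlapped MXD4. MNT made up 12.0 and 15.2% of the antagonist sum at 72 h, against 10.5 and 10.7% at 0 h and 7.98 and 9.35% at 48 h. MXD1 made up 24.4 and 24.5% at 72 h, against 28.3 and 31.8% at 0 h.

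MYC, MXD1 and the other members sit in a wider network. Of the 4 further genes of that network, 2 fell at 72 h against 0 h and 1 rose, beside 26.2% of all tested genes lower and 25.8% higher. MLXIPL, the glucose-responsive factor ChREBP, had 11.7 ± 0.615 scaled TPM at 72 h and 29.4 ± 1.41 at 0 h (-1.26 ± 0.09, limma adjusted p = 3.56e-06). MYCL, the remaining MYC paralog, had 1.86 ± 0.0924 at 72 h and 3.84 ± 0.196 at 0 h (-0.76 ± 0.10, adjusted p = 0.000231). MYCL and MLXIPL were also lower at 48 h (-0.51 ± 0.10 and -1.08 ± 0.09, adjusted p = 0.00758 and 7.02e-05), and 1 of these 2 calls was lost without the second 0 h library. MLXIP rose at 72 h (0.27 ± 0.08, adjusted p = 0.0193), a call lost on the TPM as deposited (adjusted p = 0.749) and with the first control (adjusted p = 0.136) or either 72 h library omitted (adjusted p = 0.053 and 0.0568). MLX, the MAX-like partner of MLXIP and MLXIPL, gave 0.20 ± 0.09 (adjusted p = 0.091).

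Genes that MYC is known to activate were lower at the later times. At 72 h against 0 h 30 of 43 tested members of this list of 44 fell and 1 rose, with a median of -0.33, while 26.2% of all tested genes fell and 25.8% rose around a median of 0.00. SHMT2, of mitochondrial serine and glycine metabolism, had 160.4 ± 6.38 scaled TPM at 72 h and 275 ± 8.63 at 0 h (-0.77 ± 0.05, adjusted p = 2.53e-06). NME1, a nucleoside diphosphate kinase, fell by 0.61 ± 0.04, CCND2, which encodes cyclin D2, by 0.47 ± 0.04, and TFRC, the transferrin receptor, by 0.64 ± 0.05. Among the other falls, named after their values were seen, were the cyclin-dependent kinase CDK4 (-0.68), the phosphatase CDC25A (-0.71), the pyrimidine enzyme CAD (-0.66), ornithine decarboxylase ODC1 (-0.55) and the bHLH factor TFAP4 (-0.24). PTMA, prothymosin alpha, was the 1 that rose (0.28), and that count was 3 when either 72 h library was omitted and 0 on the TPM as deposited. The 72 h count of falls was 26 to 30 without any 1 library and 30 on the TPM as deposited.

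At 48 h against 0 h 15 members of this list fell and 0 rose, with a median of -0.14, against 11.5% of all genes lower and 12.0% higher. That count was 6 or 7 without the first or second 0 h library, 8 or 7 without the first or second 48 h library, and 1 on the TPM as deposited. At 24 h 2 fell, against 0.437% of all genes, namely CCND2 (-0.31, adjusted p = 0.0146) and the cell cycle factor E2F1 (-0.35, adjusted p = 0.028). Both were named at this time after their values were seen. On the TPM as deposited their changes were -0.40 and -0.45, and neither passed (limma adjusted p = 0.486 and 0.317).

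Genes that MYC is known to repress numbered 13, of which 11 were tested. At 72 h 5 rose and 2 fell, with a median of 0.29, while 25.8% of all tested genes rose and 26.2% fell. On the TPM as deposited the counts were 2 and 3, where 1253 of the 4968 genes called were higher. DKK1, a secreted Wnt inhibitor, had 41.7 ± 1.76 scaled TPM at 72 h and 16.0 ± 2.06 at 0 h (1.33 ± 0.08, adjusted p = 2.39e-06). The CDK inhibitor gene CDKN2B rose by 0.74 ± 0.09 and the growth arrest gene GADD45A by 0.54 ± 0.04, the second not on the TPM as deposited (0.32, adjusted p = 0.105). CEBPA, a differentiation factor, fell (-0.54 ± 0.09, adjusted p = 0.000982). At 24 h 1 of the 11 fell, against 0.437% of all tested genes. This was the CDK inhibitor gene CDKN1A (-0.72 ± 0.07, limma adjusted p = 0.00453), named after its values were seen. Its values at the other times and settings are not reported here.

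**Figure D4:**
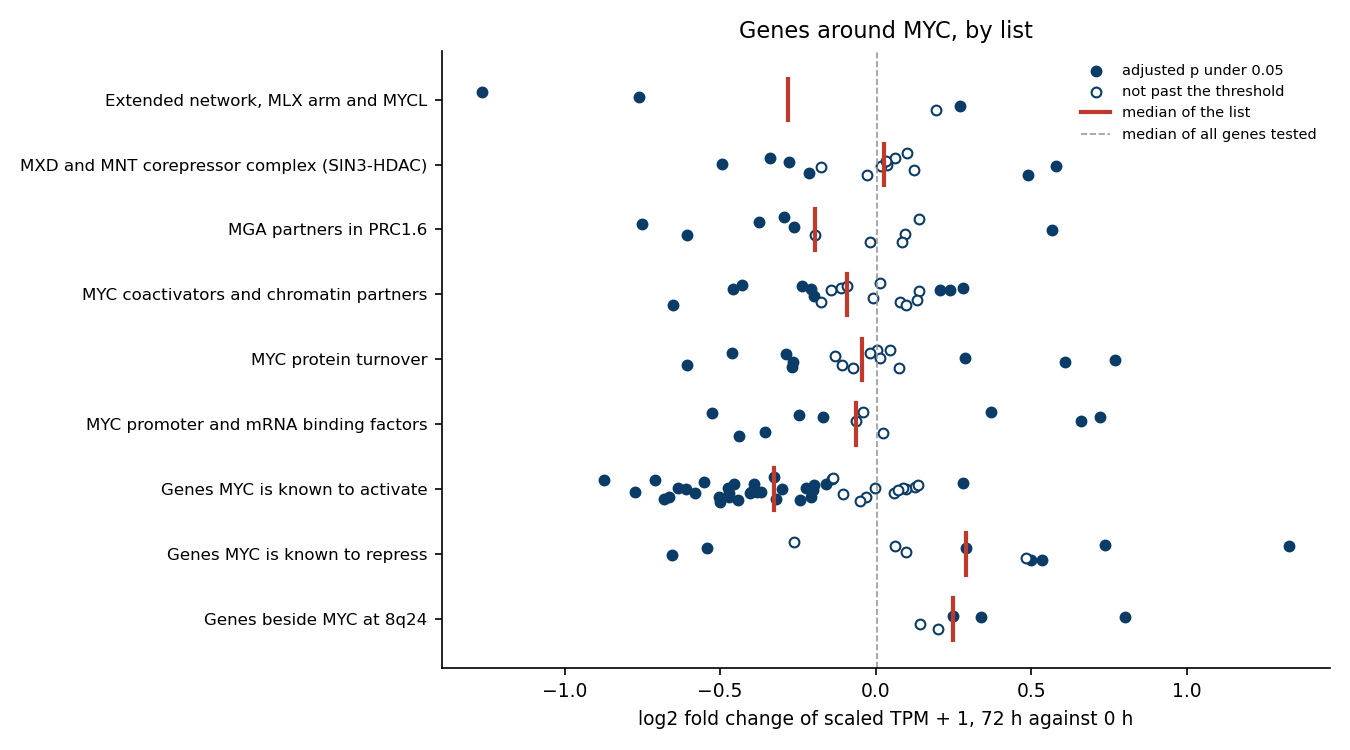
Log2 fold change of scaled TPM + 1 at 72 h of TCF7L2 siRNA against the 0 h control (x axis) for the tested genes of each list (y axis; points are genes, filled where the limma adjusted p is under 0.05). Red bars are list medians and the dashed line the median of all tested genes: the list of genes that MYC is known to activate lies mostly left of it, with a median of -0.33.

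The cofactor lists moved in both directions at 72 h. Of 14 genes of the SIN3-HDAC complex that MXD proteins and MNT recruit, 2 rose and 4 fell, against a background of 25.8% higher and 26.2% lower that holds for each count at 72 h. For none of the 3 cofactor lists was the share called far from the 52.0% of all genes. RBBP4, a histone chaperone, fell (-0.49 ± 0.05), as did the deacetylase HDAC2 (-0.21 ± 0.06), the second not without the second 0 h library (adjusted p = 0.0827). The SIN3 complex subunits ARID4B (0.58 ± 0.07) and ARID4A (0.49 ± 0.09) rose, the second not on the TPM as deposited (adjusted p = 0.133). The falls in the SIN3-HDAC list numbered 2 without the first 0 h library.

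Of 11 partners of MGA in PRC1.6, 1 rose and 5 fell at 72 h, with a median of -0.19. CBX3, a heterochromatin protein, had 96.0 ± 0.46 scaled TPM at 72 h and 162 ± 3.86 at 0 h (-0.75 ± 0.06, adjusted p = 1.03e-05). The repressor E2F6 (-0.61 ± 0.09) and WDR5, a scaffold protein (-0.38 ± 0.06), fell too, and TFDP2, an E2F partner, rose (0.57 ± 0.10), though not on the TPM as deposited (adjusted p = 0.0613). Without the second 0 h library 2 members of this list rose.

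Of 19 MYC coactivators and chromatin partners, 3 rose and 6 fell at 72 h, and 0 rose and 5 fell at 48 h, where 12.0% of all genes rose and 11.5% fell. HCFC1, a MYC-binding host cell factor, fell by 0.46 ± 0.09, TRRAP, the scaffold that MYC contacts in acetyltransferase complexes, by 0.43 ± 0.10 and ACTL6A by 0.21 ± 0.05 at 72 h. The rises numbered 0 without the second 0 h library, 1 without the first or second 72 h library, and 0 on the TPM as deposited. The 5 falls at 48 h numbered 2 without the first 0 h library, 1 without the second 48 h library and 2 on the TPM as deposited.

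Over the 8 libraries, the 5 genes whose log2 scaled TPM tracked MYC most closely among 8899 genes of 5 or more scaled TPM were NUP155, NOLC1, NUP210, SLC7A1 and NOTUM, with Pearson's r from 0.993 to 0.996. NOTUM, a secreted enzyme that inactivates Wnt ligands, fell by 1.02 ± 0.04 at 72 h, and SLC7A1, a cationic amino acid transporter, by 1.17 ± 0.08. The nucleolar protein gene NOLC1 fell by 0.50 ± 0.05 and the nucleoporin genes NUP155 and NUP210 by 0.50 ± 0.06 and 0.49 ± 0.06. For MXD1, the member after MYC with the smallest p at 72 h, the closest were BRPF1, EXOSC2, SLC29A2, E2F1 and LPAR2, at r from 0.941 to 0.968. The points share libraries and follow the same 4 groups, and the r values are descriptive.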

How the data were processed

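The authors deposited 1 table of TPM per gene symbol; the submitters' processing notes list RSEM, STAR, Trimmomatic, FastQC, SAMtools and Picard, without their roles, and the build hg19. Their versions, the gene annotation and the use of strand were not given in the sources used here. Depth per library is unknown, since TPM does not retain it, and values carry no counting interval. Here each library was scaled by the median of its gene-wise ratios to the geometric mean of all 8, and log2(scaled TPM + 1) of genes with 1 TPM or more in at least 2 libraries was fitted with limma 3.58.1 (R 4.3.3) in 1 model of 4 groups with 4 residual degrees of freedom and a mean-variance trend. Such a fold change understates that of low genes. Scaling was preferred because the listed TPM summed unequally. On the TPM as deposited the median of all genes shifted by -0.09, -0.02 and -0.19 at 24, 48 and 72 h against 0 h and the median SE was 0.162, against 0.0912 after scaling. The limma fit for 72 h against 0 h was also run on simulated data with known fold changes. Those data took their noise from the fit's own variances, so the run cannot test the spread between the real libraries. Members, gene lists and tests were chosen with earlier results of these data known. Named were all members, TCF7L2, up to 4 genes per list with the smallest p at 72 h against 0 h and 5 or more scaled TPM, and the 5 genes closest in pattern to MYC and to MXD1; values of some listed genes are not reported here. Exon overlaps come from GENCODE 29 and promoter sequences from RefSeq, both GRCh38.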

Additional observations from a re-analysis of the deposited data

Results flagged for a closer look

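For 4 members the change against the control differed between 72 and 24 h of TCF7L2 siRNA, by the limma test of that difference, which is the comparison of 72 h against 24 h. The differences were -0.45 for MYC (adjusted p = 2.92e-05), 0.44 for MNT (adjusted p = 0.007), -0.38 for MXD3 (adjusted p = 0.0146) and -0.39 for MYCN (adjusted p = 0.0113). In the same comparison 50.1% of all tested genes were called, so 4 of 9 members was a share no higher than the background. The MNT call was lost on the TPM as deposited (limma adjusted p = 0.104). Those of MXD3 and MYCN were lost with some single libraries omitted. Both 72 h libraries were below both 24 h libraries for MYC, MYCN and MXD3, and above them for MNT. The same separation was seen for 2 members that were not called, with MXI1 above and MGA below (limma adjusted p = 0.131 and 0.0817). How many of all genes were separated between these times was not counted.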

How the results depend on the processing

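Of 1056 values of single members and TCF7L2 under another setting, 957 kept direction and side of the threshold. Another 62 lost the call, 6 gained one and 31, none called before or after, changed sign. The TCF7L2 change at 72 h against 0 h was not part of this tally and kept its direction and call in every setting. On the TPM as deposited 55 genes were called at 24 h, 922 at 48 h (each against 0 h) and 597 for 48 h against 24 h, with 0, 1 and 0 members. The 48 h changes of MYC, MXD1 and MNT there were -0.42, -0.36 and -0.39, against -0.41, -0.35 and -0.38 after scaling. Their SE was 0.169, 0.161 and 0.165, against 0.043, 0.081 and 0.107. These 48 h calls were thus lost with a larger SE and not with a smaller change. Without a filter 15 genes were called at 24 h, and 0 members both there and for 48 h against 24 h. A minimum of 5 TPM, which removed MYCN, gave 212 genes at 24 h, and no mean-variance trend 20 with 0 members. Leaving out each library gave 4 to 296 genes and 0 to 2 members at 24 h, 1358 to 3147 and 2 to 4 at 48 h, 4919 to 6041 and 1 to 3 at 72 h, 622 to 1955 and 0 to 1 for 48 h against 24 h, 3177 to 4580 and 3 to 4 for 72 h against 48 h, and 4614 to 5798 and 2 to 4 for 72 h against 24 h. TPM as deposited without the second 72 h library, added after seeing the data, gave 738 genes and 2 members at 24 h, 1 member at 72 h and 0 for 48 h against 24 h. In that added run the members called at 48 h against 0 h were the same as after scaling. The TCF7L2 change at 72 h was -0.65 to -0.52 and the log2 ratio of MYC to antagonists, 72 h against 0 h, -0.81 to -0.65 without any 1 library.

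Signs turned on the TPM as deposited for MAX at 24 h (-0.071), at 72 h (-0.14), for 72 h against 48 h (-0.045) and against 24 h (-0.073), for MYCN at 72 h (-0.079, and -0.049 with quantile normalization), and for MXD1 (-0.10) and MXD4 (-0.13) at 72 h against 48 h. That of MXD1 for 72 h against 24 h was 0.024 with a minimum of 5 TPM. As deposited without the second 72 h library, MAX gave -0.071 at 24 h and -0.055 at 72 h, MYCN -0.0039 at 72 h and MXD1 0.078 for 72 h against 24 h. Leaving out each library, the ranges that crossed 0 were -0.053 to 0.10 for MAX, -0.20 to 0.060 for MXI1 and -0.068 to 0.26 for MXD4 at 24 h, -0.016 to 0.16 for MAX at 72 h, -0.35 to 0.065 for MXI1 and -0.036 to 0.30 for MXD4 at 48 h against 24 h, -0.068 to 0.027 for MXD3, -0.018 to 0.15 for MXD4, -0.18 to 0.0089 for MGA and -0.14 to 0.10 for TCF7L2 at 72 h against 48 h, and -0.061 to 0.049 for MXD1 and -0.041 to 0.14 for MAX at 72 h against 24 h. The cause was not tested.

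With the replicate number as a block 91 genes were called at 24 h, 2707 at 48 h and 6141 at 72 h against 0 h, and no member changed its call. Deviations of same-numbered libraries correlated at -0.09 to 0.11 across genes, so the numbers were not taken to pair the libraries. With 2 libraries a group and no read depth, changes of members at a few TPM rest on an SE moderated across genes, and where a library was left out the lone one of its group was assumed to vary like the other groups.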

Other observations

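Factors that bind the MYC promoter or its mRNA moved both ways at 72 h against 0 h, with 3 of 11 higher and 5 lower, beside 25.8% of all tested genes higher and 26.2% lower. The RNA-binding proteins IGF2BP1 and IGF2BP3, known to stabilise MYC mRNA, rose to 45.5 ± 2.71 and 45.4 ± 1.45 scaled TPM at 72 h, against 28.4 ± 1.17 and 27.1 ± 1.1 at 0 h (limma log2 change 0.66 ± 0.08 and 0.72 ± 0.07). CNBP, which binds the MYC promoter, fell by 0.53 ± 0.05 and PUF60, a repressor that acts with FUBP1 there, by 0.44 ± 0.05. Of 16 tested genes of MYC protein turnover 3 rose and 5 fell, a share near the 52.0% of all genes called. FBXW7, the ubiquitin ligase subunit that targets MYC, rose to 42.5 ± 2.01 scaled TPM at 72 h, against 24.5 ± 0.128 at 0 h (0.77 ± 0.07, limma adjusted p = 1.44e-05). HUWE1, another ligase for MYC, fell by 0.61 ± 0.07, USP36, a nucleolar deubiquitinase, by 0.46 ± 0.09 and SET, a PP2A inhibitor, by 0.27 ± 0.05. The falls in this list numbered 3 without the first 0 h library or without the second 72 h library.

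Of the genes listed beside MYC at 8q24, 8 of 14 symbols were in the table and 5 were tested, of which 3 rose and 0 fell at 72 h, beside 25.8% of all tested genes higher and 26.2% lower. TRIB1, a pseudokinase, rose by 0.34 ± 0.06, the sterol synthesis gene SQLE by 0.25 ± 0.07 and ASAP1 by 0.80 ± 0.13. On the TPM as deposited ASAP1 alone was called, with 0.12 for TRIB1 (adjusted p = 0.553) and 0.04 for SQLE (adjusted p = 0.867). Omitting either control library removed the SQLE call too (adjusted p = 0.0543 and 0.058). WASHC5 and NSMCE2 gave 0.20 ± 0.09 and 0.14 ± 0.08 (adjusted p = 0.0837 and 0.165), and -0.01 and -0.06 on the TPM as deposited.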
